A study of Mus musculus with 8 samples.

Results

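The genes described here are 37 interferon-stimulated genes, a fixed list of transcripts that cells make in response to interferons. They were taken by gene symbol from a table of 53801 genes, and 36 of the 37 held the summed count of at least 80 over the 8 libraries that the selection required. Just inside that limit was Oas3 with 175 counts, and the member left out, Igtp, held 1 count. All 36 also passed the low-count filter of the test, which kept 15643 genes. The RNA came from small intestinal stroma of mice, from cells sorted as CD45-CD31- (without the leukocyte and endothelial surface markers) and YFP+. Surface PDGFRα, a platelet-derived growth factor receptor, split them into a PDGFRα- and a PDGFRα+ fraction, with 4 libraries each. Both fractions came from mice named in the labels by a floxed lymphotoxin β receptor gene (LTβR flox) and PDGFRα/YFP, so by the labels both fractions carry these alleles. The sources used here do not give what drives YFP or a recombinase, the strain, the ages, or whether animals were pooled. The titles number the libraries 1 to 4 in each fraction without saying what equal numbers share or whether libraries are separate mice, so p-values here reflect spread among libraries alone, and that spread may be technical.

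Interferons are secreted cytokines that act through cell surface receptors and the JAK kinases bound to them. Type I interferons activate a complex that holds STAT2 and IRF9 and binds a DNA element called the ISRE, while interferon-γ acts mainly through an element called GAS. The induced genes encode antiviral effectors, sensors of viral nucleic acid, GTPases that act on vacuoles holding pathogens, and the pathway's own signalling proteins and brakes. In the intestine such genes are known to be expressed at a low level also without infection.

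Promoter sequences are shown because 20 of the members differed together between library numbers, as described further on, and the ISRE is the element many of them share. RefSeq windows (GRCm38.p6) were found for 27 of the 37 genes, and the 250 bases before the annotated start were searched on both strands. An ISRE-like motif (GAAA and GAAA with 2 bases of any kind between them), which can overlap itself, was present in 14 of these 27 genes (51.9%) and in 3.46% of 27025 genes with a window of the same length. A GAS-like motif (TTC and GAA with 3 bases of any kind between them) was present in 6 of 27 (22.2%) and in 8.13% of all. A match is a description of the letters and not a measured binding site. An ISRE-like match was present in 8 and absent from 5 genes that passed the test of library numbers described below. Of the genes that did not pass, 6 had a match, the untested Igtp included, and 8 had none. A link of the motifs to the library numbers was not tested. In the stretches below, written 5′ to 3′ along the gene, capitals mark the match, and a match that reads TTTC in place of GAAA is the ISRE-like motif on the other strand. The ubiquitin-like protein gene Isg15 (chr4:156200855-156200916, minus strand) held 3 overlapping matches ending 56 bases before the start.
Isg15: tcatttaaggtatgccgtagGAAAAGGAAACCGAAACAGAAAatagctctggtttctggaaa
Ifit1, nearer match (chr19:34640784-34640833, plus strand): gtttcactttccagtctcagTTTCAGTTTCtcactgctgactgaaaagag
Ifit3, nearer match (chr19:34583387-34583436, plus strand): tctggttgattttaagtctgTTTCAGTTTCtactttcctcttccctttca
Ifit3b, nearer match (chr19:34607783-34607832, plus strand): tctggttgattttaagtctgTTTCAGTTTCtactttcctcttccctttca
Rsad2 (chr12:26456543-26456592, minus strand): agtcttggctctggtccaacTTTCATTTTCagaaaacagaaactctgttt
Stat2 (chr10:128270256-128270305, plus strand): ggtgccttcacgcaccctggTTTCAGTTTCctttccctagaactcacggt
Bst2 (chr8:71537567-71537622, minus strand): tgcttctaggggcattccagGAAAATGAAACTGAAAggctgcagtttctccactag
Irf1, GAS-like match (chr11:53769904-53769952, plus strand): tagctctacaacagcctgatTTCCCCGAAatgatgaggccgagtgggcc
The stretches of Ifit3 and Ifit3b were identical, and reads of such near-identical copies can be split or lost in counting, so values of these paralogs, and of the Oas1 and Gbp families, are uncertain. Irf1, a transcription factor gene, had a GAS-like match and no ISRE-like match in its window.

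Total counts ran from 12.9 to 35.1 in units of 1e+06 per library. Stromal genes such as Col3a1, the most abundant gene of every library with 4.44% to 6.73% of counts, were high throughout. Pdgfra RNA did not separate the fractions (475 to 750 and 497 to 656 CPM in PDGFRα- and PDGFRα+ libraries, edgeR adjusted p = 0.971), and the sort was on protein, so it does not check the labels. CPM means counts per 1e+06 of the library size scaled by TMM.

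The interferon-stimulated genes did not differ detectably between the fractions, and they differed widely between the library numbers within both. Of the 36 tested members, 0 were higher and 0 lower in PDGFRα+ cells (edgeR, Benjamini-Hochberg adjusted p under 0.05, group as the only term), where 0.243% of all tested genes were called, 0.192% higher and 0.0511% lower. At an unadjusted p under 0.05 there were also 0, against 6.95% of all genes, and DESeq2 and limma-voom called 0 (1.37% and 0.288% of all genes). A joint edgeR test of the 4 numbers, with the fraction as a term, called 20 of the 36 members, against 4.28% of all tested genes (669 of 15643). In all 20 the library numbered 4 was the lowest in each fraction. In bulk RNA, fewer cells of a type and less RNA per cell cannot be told apart, and this holds for every difference given here.

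Without the number in the fit, the fraction differences were centred near 0. Fitted log2 fold changes (PDGFRα+ minus PDGFRα-) were positive for 18 and negative for 18 of the 36 members, with 49.1% positive over all tested genes, and their median was -0.002 against -0.009 over all tested genes. In 0 of the 36 members did the libraries of the fractions separate without overlap, against 2.69% of all genes with every PDGFRα+ library higher and 2.36% with every one lower. A difference of more than 2-fold was outside the 95% interval for 12 members and inside it for the other members, so for most of them the spread leaves room for such a difference. With the number as a block in the fit, 0 members were again called (2.27% of all genes, 1.34% higher and 0.933% lower), 4 had an unadjusted p under 0.05 (11.7% of all genes), and 26 had an interval within 2-fold either way. The median log2 fold change of the members in that fit was -0.11, against -0.005 over all tested genes. By the authors' deposited table, none of the members, 0 of 36, had an adjusted p under 0.05 (4.82% of all genes with one), and the lowest was 0.0791, for Mx2. The terms of that comparison were not examined, so its share need not match those of the edgeR fits.

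**Figure D1:**
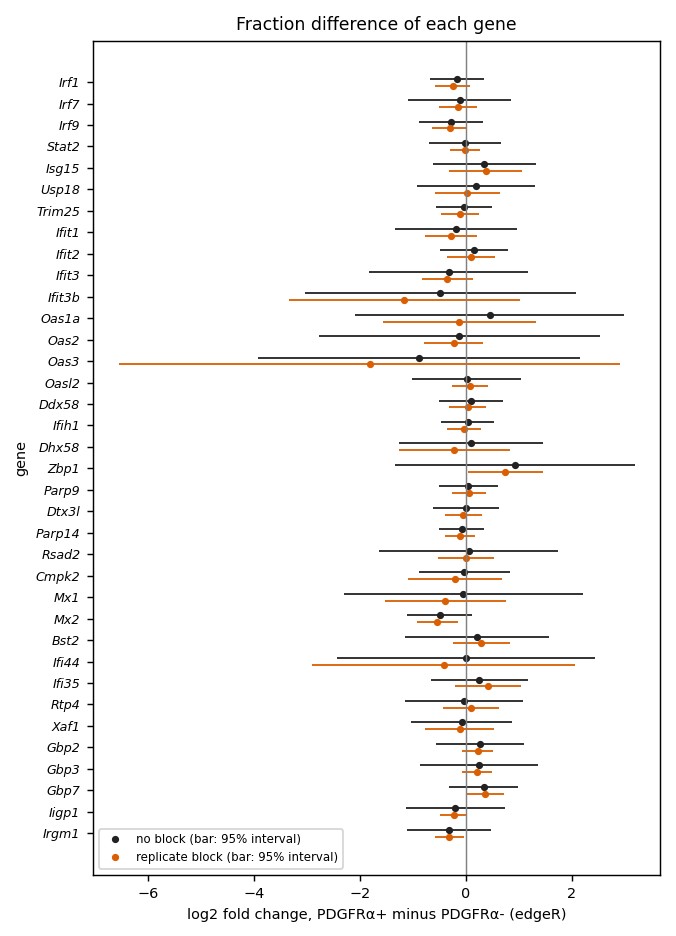
Fitted log2 fold change (horizontal axis, PDGFRα+ minus PDGFRα-, edgeR) of the 36 tested genes, with 95% intervals as bars, without (black) and with (orange) the library number as a block. Points lie on both sides of 0, 18 on each side without the block, and most orange bars are shorter than the black ones.

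The spread within the fractions was large and shared between them. The median SD of log2 CPM over the members was 0.76 in PDGFRα- and 0.82 in PDGFRα+ libraries, against 0.51 and 0.49 over all tested genes. Of each gene's within-fraction sum of squares, the part common to libraries of equal number had a median of 89.7% over the members and 62.5% over all tested genes, where libraries that share nothing give 50% on average. The library numbered 4 was the lowest of its fraction in both fractions for 30 of 36 members, against 12% of all tested genes. Over the members, the median ratio of number 4 to the mean of numbers 1 to 3 was 0.45 in PDGFRα- and 0.35 in PDGFRα+. Over all tested genes these medians were 0.96 and 0.95. Number 1 was the highest in both fractions for 15 members, against 9.65% of all genes. The mean log2 CPM of the 36 members, centred by gene, was 0.75, 0.04, 0.38 and -0.86 in PDGFRα- and 0.61, 0.22, 0.55 and -1.68 in PDGFRα+ libraries 1 to 4. The members are not independent replicates of a library, so these levels carry no test.

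**Figure D2:**
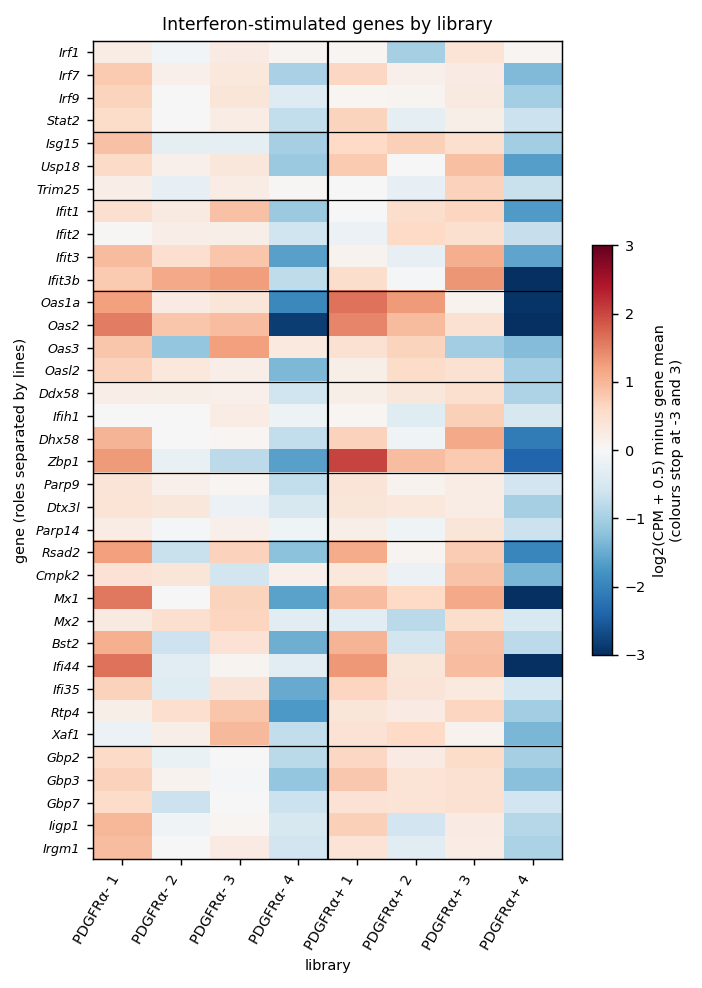
Level of each of the 36 genes (rows, grouped by role between lines) in each library (columns), as log2(CPM + 0.5) minus the gene's mean, with colours limited to -3 and 3. The columns of the libraries numbered 4 are blue for nearly all genes in both fractions, and those numbered 1 are mostly red.

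Per kilobase of annotated exon, the members spanned a wide range of levels. The immunity-related GTPase gene Iigp1 stood highest at 148 CPM per kilobase on average over the 8 libraries and Irf1 next at 128, a difference well within the spread between libraries. Gbp2 followed at 60.9, Gbp3 at 35.7 and Mx2 at 29.6 CPM per kilobase. The lowest tested member was the oligoadenylate synthetase gene Oas3 at 0.14 CPM per kilobase. The further values in this text are CPM, which compare libraries and not genes.

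Among the transcription and signalling members, 3 of 4 passed the number test and Irf1 did not. Irf7, which encodes a factor that amplifies type I interferon production, stood at 69.6, 45.0, 50.6 and 20.1 CPM in PDGFRα- and at 62.6, 44.7, 47.8 and 15.9 CPM in PDGFRα+ libraries 1 to 4 (edgeR adjusted p = 0.00149 for the number). Each PDGFRα+ library was close to the PDGFRα- library of its number, and both libraries numbered 4 lay below all others. Stat2, which encodes a subunit of the ISRE-binding complex, stood at 133, 90.2, 105 and 54.1 CPM in PDGFRα- and at 145, 74.8, 103 and 57.9 CPM in PDGFRα+ libraries (edgeR adjusted p = 0.00323 for the number), with 97.4% of its within-fraction spread common to the number. Irf9, which encodes the DNA-binding subunit of that complex, stood at 132, 82.6, 107 and 63.2 CPM and at 86.7, 88.3, 101 and 40.9 CPM in the same order (edgeR adjusted p = 0.0264 for the number). Irf1 did not follow this order. Its levels were 576, 469, 587 and 525 CPM in PDGFRα- and at 510, 246, 653 and 514 CPM in PDGFRα+ libraries 1 to 4, with library 2 the lowest in each fraction and library 4 near the middle (edgeR adjusted p = 0.149 for the number). Irf9 shares 123 bases of exon with Rnf31 on the same strand, and Irf1 and Irf7 overlap genes on the other strand.

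The members around ISG15, a ubiquitin-like protein that is attached to other proteins, were uneven. Isg15 itself stood at 22.2, 9.60, 9.59 and 5.73 CPM in PDGFRα- and at 18.2, 19.7, 16.8 and 5.50 CPM in PDGFRα+ libraries 1 to 4. Library 4 was the lowest in each fraction, but the number test did not pass (edgeR adjusted p = 0.127), and the fraction difference was among the 3 highest of the members at a log2 fold change of 0.35 ± 0.45 (SE, edgeR adjusted p = 0.970). Usp18, which encodes the protease that removes ISG15 and damps receptor signalling, stood at 19.99, 14.9, 17.1 and 5.88 CPM and at 23.4, 13.3, 25.4 and 3.94 CPM (edgeR adjusted p = 0.0234 for the number). Its libraries numbered 4 were 2.95-fold and 5.26-fold below the mean of the other numbers in PDGFRα- and PDGFRα+ cells. Trim25, which encodes a ubiquitin ligase acting on the RNA sensor RIG-I, ranged from 65.9 to 91.3 CPM in PDGFRα- and from 49.1 to 125 CPM in PDGFRα+ libraries and did not pass the number test (edgeR adjusted p = 0.167).

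Of the 4 IFIT genes, whose proteins bind foreign RNA or interact with each other, 2 passed the number test. Ifit1 stood at 30.0, 25.8, 39.5 and 9.65 CPM in PDGFRα- and at 21.2, 30.9, 33.5 and 6.24 CPM in PDGFRα+ libraries 1 to 4 (edgeR adjusted p = 0.00573 for the number). Ifit3 stood at 53.1, 39.2, 49.1 and 8.59 CPM and at 29.4, 22.9, 58.6 and 8.77 CPM (edgeR adjusted p = 0.00117 for the number). For both genes the libraries numbered 4 were the lowest of all 8. Ifit3b stood at 15.999, 20.6, 22.2 and 5.08 CPM in PDGFRα- libraries and at 13.3, 8.77 and 23.4 CPM in PDGFRα+ libraries 1 to 3, and held 0 counts in library 4, where 3 counts would be 0.223 CPM. That library was therefore at least 68.1-fold below the mean of the other PDGFRα+ libraries for Ifit3b, with counting error alone considered. The number test did not pass for Ifit3b (edgeR adjusted p = 0.513) or for Ifit2 (0.168), whose levels were 16.5 to 28.9 CPM in PDGFRα- and 15.3 to 38.2 CPM in PDGFRα+ libraries with library 4 the lowest in each.

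Of the 4 OAS genes, which encode enzymes or enzyme-like proteins of the double-stranded RNA response, 2 passed the number test. Oas2 stood at 35.3, 21.4, 22.8 and 1.21 CPM in PDGFRα- and at 33.6, 23.3, 16.4 and 0.743 CPM in PDGFRα+ libraries 1 to 4. The libraries numbered 4 held 24 and 10 counts and lay 21.98-fold and 32.9-fold below the mean of numbers 1 to 3, and the number test gave the lowest value of all members (edgeR adjusted p = 5e-05). The fraction difference of Oas2 was a log2 fold change of -0.12 ± 1.13 (SE) with a 95% interval from -2.78 to 2.54, and -0.23 with an interval from -0.78 to 0.33 when the number was a block. Oasl2 stood at 111, 85.5, 79.2 and 26.5 CPM and at 77.7, 100.4, 93.9 and 33.6 CPM, again with both libraries numbered 4 below all others (edgeR adjusted p = 0.00138 for the number). Oas1a stood at 8.43, 4.07, 4.45 and 0.502 CPM in PDGFRα- libraries and at 11.3, 8.85 and 3.65 CPM in PDGFRα+ libraries 1 to 3, with 0 counts in library 4, at least 35.6-fold below their mean (edgeR adjusted p = 0.0640 for the number). Oas3 stood at 1.71, 0.0503, 2.42 and 1.00 CPM and at 1.204, 1.47, 0.0968 and 0 CPM, a level at which no order of libraries was detectable (edgeR adjusted p = 0.949 for the number). It had the lowest fitted fraction difference of the members, a log2 fold change of -0.88 ± 1.42 (SE, edgeR adjusted p = 0.975).

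**Figure D3:**
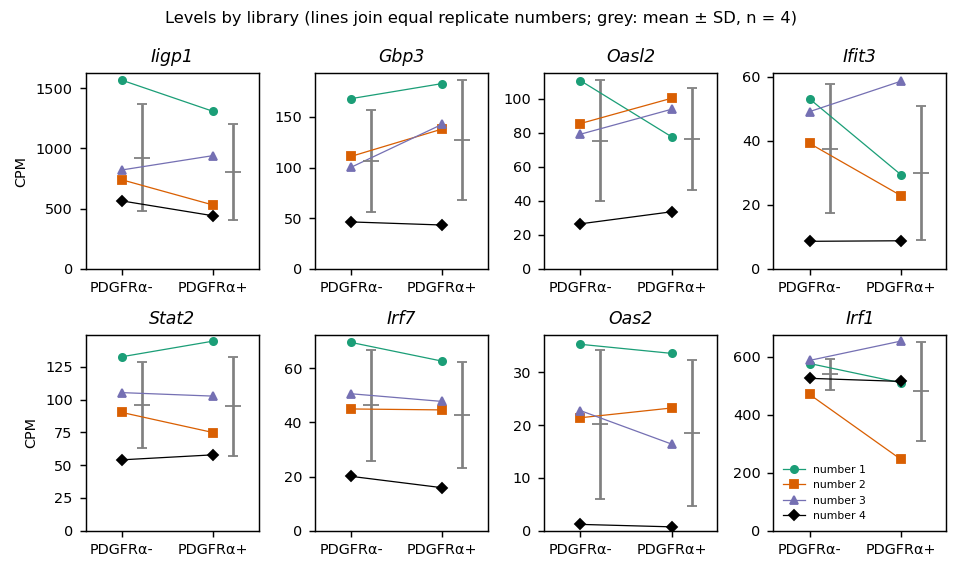
CPM (vertical axes, from 0) of 8 genes in each library of both fractions, with a symbol and line for each library number and the mean ± SD (n = 4) in grey. The black diamonds of number 4 are the lowest in each fraction in every panel except that of Irf1, while the fraction means overlap within their SD.

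Among the nucleic acid sensors, Ddx58 and Zbp1 passed the number test. Ddx58, which encodes the RNA sensor RIG-I, stood at 60.9, 59.6, 58.5 and 34.4 CPM in PDGFRα- and at 59.4, 66.7, 73.9 and 27.3 CPM in PDGFRα+ libraries 1 to 4 (edgeR adjusted p = 0.0336 for the number). Zbp1, which encodes a sensor of left-handed nucleic acid that can trigger cell death, stood at 51.5, 18.1, 12.1 and 6.43 CPM and at 87.4, 40.3, 36.8 and 3.64 CPM (edgeR adjusted p = 0.00554 for the number). Zbp1 was higher in PDGFRα+ cells for numbers 1, 2 and 3 and lower for number 4. It had the highest fitted fraction difference of the members, a log2 fold change of 0.93 ± 0.96 (SE, edgeR adjusted p = 0.970), and 0.75 with the block (adjusted p = 0.389). Without both libraries numbered 4, the blocked value was 1.17 and passed the threshold (edgeR adjusted p = 0.00962), the single call of a member in any fraction fit run. Ifih1, which encodes the sensor MDA5, stood at 113, 113, 134 and 102 CPM and at 118, 88.6, 186 and 80.7 CPM. Dhx58, which encodes the related LGP2, ranged from 3.47 to 12.9 CPM and from 1.04 to 14.0 CPM in PDGFRα- and PDGFRα+ libraries. Neither passed the number test (edgeR adjusted p = 0.107 and 0.199), although library 4 was the lowest in each fraction for both.

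The neighbours Parp9 and Dtx3l on chromosome 16, whose proteins form a complex that modifies other proteins, both passed the number test with smaller contrasts. Parp9 stood at 69.4, 58.6, 54.7 and 31.3 CPM in PDGFRα- and at 69.3, 56.2, 60.9 and 35.1 CPM in PDGFRα+ libraries 1 to 4 (edgeR adjusted p = 0.0411 for the number). Dtx3l stood at 82.0, 78.9, 54.7 and 43.9 CPM and at 79.3, 77.7, 71.9 and 30.9 CPM (edgeR adjusted p = 0.0310 for the number). Their exons overlap by 458 bases on opposite strands, so without strand use in counting some reads of the pair could not be told apart. Parp14, an ADP-ribosyltransferase gene next to them, stood at 160, 132, 152 and 124 CPM and at 153, 124, 176 and 87.3 CPM, with library 4 the lowest in each fraction and no call (edgeR adjusted p = 0.166 for the number).

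Of 9 other antiviral effectors, Rsad2, Mx1, Bst2 and Rtp4 passed the number test. Rsad2, which encodes viperin, stood at 52.6, 13.8, 36.3 and 9.25 CPM in PDGFRα- and at 48.7, 23.5, 38.3 and 5.35 CPM in PDGFRα+ libraries 1 to 4 (edgeR adjusted p = 0.00106 for the number). Bst2, which encodes the membrane protein tetherin, stood at 34.4, 10.2, 21.8 and 5.53 CPM and at 33.2, 10.7, 30.1 and 9.14 CPM (edgeR adjusted p = 0.00323 for the number). In these 2 genes library 2 was also low in both fractions, and 94.0% and 97.2% of their within-fraction spread was common to the number. Rtp4 stood at 21.4, 27.2, 34.2 and 5.38 CPM and at 24.4, 22.7, 29.7 and 8.91 CPM (edgeR adjusted p = 0.0105 for the number). Mx1, which encodes a dynamin-like GTPase against influenza viruses, stood at 18.6, 5.83, 9.59 and 1.61 CPM in PDGFRα- and at 11.5, 9.22, 13.5 and 0.149 CPM in PDGFRα+ libraries, the last from 2 counts (edgeR adjusted p = 0.0355 for the number). Mx1 was the single call of the 20 that limma-voom did not make.

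Mx2, a paralog of Mx1, had the lowest unadjusted p of the members for the fraction (0.108) and was not called. Its levels were 122, 141, 159 and 79.0 CPM in PDGFRα- and 80.7, 57.1, 144 and 73.2 CPM in PDGFRα+ libraries 1 to 4, lower in PDGFRα+ cells for each number with overlapping ranges. The fitted difference was -0.49 ± 0.28 on the log2 scale (SE, edgeR adjusted p = 0.853), and -0.53 with an adjusted p of 0.187 with the block. Cmpk2, the nucleotide kinase gene beside Rsad2 on chromosome 12, was among the members that shared least between the fractions. It stood at 24.5, 23.3, 12.2 and 20.1 CPM in PDGFRα- and at 22.6, 16.02, 33.2 and 6.69 CPM in PDGFRα+ libraries 1 to 4, so library 3 was the lowest in the former and the highest in the latter (edgeR adjusted p = 0.773 for the number). Ifi44 stood at 18.4, 4.32, 5.93 and 4.37 CPM and at 14.5, 7.33, 11.2 and 0 CPM, with no counts in PDGFRα+ library 4, at least 49.5-fold below the mean of the other 3 (edgeR adjusted p = 0.649 for the number). Ifi35 ranged from 4.67 to 23.4 CPM and from 9.88 to 22.8 CPM, and Xaf1 from 9.35 to 32.1 CPM and from 5.87 to 24.5 CPM, with library 4 the lowest in each fraction for both genes and no call (edgeR adjusted p = 0.102 and 0.117 for the number).

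The guanylate-binding proteins and IRG GTPases, families strongly induced by interferon-γ, were among the more abundant members, and 4 of the 5 tested passed the number test. Iigp1 stood at 1565, 739, 820 and 563 CPM in PDGFRα- and at 1306, 529, 939 and 440 CPM in PDGFRα+ libraries 1 to 4 (edgeR adjusted p = 2.4e-04 for the number). Gbp3 stood at 168, 111, 100.3 and 46.3 CPM and at 183, 138, 143 and 43.2 CPM (edgeR adjusted p = 1.8e-04 for the number), and Gbp2 at 211, 123, 142 and 81.4 CPM and at 218, 170, 209 and 71.5 CPM (0.00198). Number 1 was the highest and number 4 the lowest in each fraction for these 3 genes. Irgm1, which encodes a regulator of the other IRG GTPases, stood at 228, 119, 142 and 79.99 CPM and at 159, 96.3, 140 and 61.4 CPM, lower in PDGFRα+ cells for every number without passing the fraction test (edgeR adjusted p = 0.970, and 0.332 with the block). Gbp7 stood at 155, 67.8, 106 and 67.1 CPM and at 143, 140, 146 and 70.9 CPM and missed the number threshold (edgeR adjusted p = 0.0523). Libraries numbered 4 were 1.85-fold and 2.10-fold below the mean of the others for Iigp1 and 2.73-fold and 3.58-fold for Gbp3. These contrasts are smaller than the 21.98-fold and 32.9-fold of Oas2. Igtp held 1 count in all 8 libraries, while Irgm2 held 31983. They share 162 bases of exon on the same strand, of the 2022 exon bases of Igtp. The part of this limited overlap in the low count was not tested. The count of Igtp is not read as absence of its RNA.

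**Figure D4:**
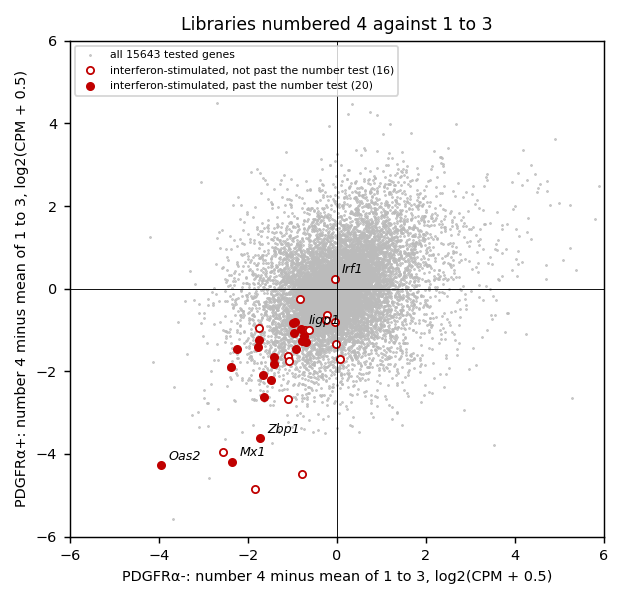
Difference of the library numbered 4 from the mean of numbers 1 to 3, in log2(CPM + 0.5), in PDGFRα- (horizontal) and PDGFRα+ cells (vertical), for the 36 interferon-stimulated genes (red, filled where the number test passed) and all 15643 tested genes (grey, 4 outside the axes). The filled points lie in the lower left, where both fractions were lower in number 4, with Oas2 and Mx1 the farthest of them from 0, while Irf1 (open) is near it.

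The number test does not single out a number, and its calls depended on the libraries numbered 4 and 1. Without both libraries numbered 4 it called 4 of 36 members (Zbp1, Rsad2, Bst2 and Iigp1), against 1.56% of all genes. Without number 1 it called 10 (2.01% of all genes), without number 3 it called 17 (3.48%) and without number 2 it called 27 (6.05%). The calls without numbers 1, 3 and 4 were all among the 20 members named by the full set of libraries, and without number 2 all 20 were kept. By depth (1e+06 counts), the libraries held 26.9, 20.9, 12.9 and 19.8 in PDGFRα- and 35.1, 23.1, 29.8 and 13.0 in PDGFRα+ libraries 1 to 4. In PDGFRα+ cells the libraries stood in the same order by depth as by the mean level of the members, and number 1 was the deepest in both fractions, while in PDGFRα- cells library 3 was the shallowest. The part of depth in the shared differences was not tested.

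Other genes of the interferon pathway were read from lists of 101 genes, of which 77 were tested. Few or no reads were counted for the interferon genes themselves. Of 15 ligand genes 12 held 0 counts in all libraries (3 counts are 0.223 CPM in PDGFRα+ library 4), and Ifna12, Ifne and Ifng held 15, 1 and 5 counts. Those of Ifna12 were all in PDGFRα+ library 4. Myd88, Irf8 and 5 genes of a further list were also listed at 0 in every library, and none of these zeros, those of the ligands included, is read as absence of the RNA. Of the 77 tested genes 0 differed between the fractions in edgeR (0.243% of all tested genes), with 1 at an unadjusted p under 0.05 (6.95% of all). DESeq2 and limma-voom called 0 of them (1.37% and 0.288% of all). By the authors' deposited table, Ifngr1 (adjusted p = 0.0304, higher in PDGFRα+ cells) and Socs3 (adjusted p = 0.000544, lower) were past 0.05, beside 4.82% of all genes with an adjusted p. With the block, Socs3, which encodes an inhibitor of cytokine receptor signalling, was lower in PDGFRα+ cells (log2 fold change -0.62 ± 0.14 SE, edgeR adjusted p = 0.0280). Its levels were 435, 646, 774 and 837 CPM in PDGFRα- and 292, 278, 639 and 616 CPM in PDGFRα+ libraries 1 to 4, so each number was lower in PDGFRα+ cells although the ranges overlapped.

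Of the 5 tested receptor genes, all were lowest in the libraries numbered 4 in both fractions, beside 12% of all tested genes. Ifngr1, which encodes the ligand-binding chain for interferon-γ, passed the number test (edgeR adjusted p = 0.00523). Ifngr1 stood at 103, 142, 93.3 and 72.9 CPM in PDGFRα- and at 121, 256, 138 and 91.7 CPM in PDGFRα+ libraries 1 to 4, with library 2 the highest in each. Its levels were higher in PDGFRα+ cells for each number with overlapping ranges, and the fraction call did not pass in edgeR (log2 fold change 0.56 ± 0.30 SE, adjusted p = 0.830, and 0.50 with adjusted p = 0.0702 with the block). Ifnar1, which encodes a chain of the type I receptor, ranged from 62.6 to 88.6 CPM and from 62.0 to 87.7 CPM and was not called (edgeR adjusted p = 0.997 for the fraction). Jak1, which encodes a kinase bound to these receptors, went the other way, at 387, 459, 659 and 817 CPM and at 470, 323, 646 and 888 CPM, with library 4 the highest in each fraction (edgeR adjusted p = 0.00292 for the number).

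Of 8 negative regulators, Socs1 and Socs3 passed the number test, again in different orders. Socs1, itself induced by interferon, stood at 74.8, 35.7, 41.1 and 23.5 CPM and at 45.7, 20.03, 32.5 and 19.1 CPM, lowest in library 4 in each fraction (edgeR adjusted p = 0.0127 for the number). Socs3, by its levels above, was highest in PDGFRα- library 4 and lowest in library 1 of that fraction (edgeR adjusted p = 0.00873 for the number). Of 12 tested genes of nucleic acid and pathogen sensing upstream of interferon, 0 passed the number test in edgeR, with 1 at an unadjusted p under 0.05, beside 4.28% and 16.1% of all tested genes, so these counts do not set the list apart. The most abundant of them per kilobase was Tbk1, which encodes a kinase that activates interferon regulatory factors, at 11.5 CPM per kilobase on average. Tbk1 stood at 41.7, 57.8, 42.7 and 36.7 CPM and at 51.99, 47.5, 44.2 and 36.5 CPM.

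A further list of interferon-stimulated genes outside the 37 showed the same order of libraries. Of 47 tested, 19 passed the number test, beside 4.28% of all tested genes, and 33 were lowest in number 4 in both fractions, beside 12%. Ifi27l2a stood at 210, 101, 114 and 39.6 CPM in PDGFRα- and at 219, 198, 157 and 49.7 CPM in PDGFRα+ libraries 1 to 4 (edgeR adjusted p = 1.2e-04 for the number). Lgals3bp, which encodes a secreted galectin-binding protein, stood at 372, 205, 221 and 96.2 CPM and at 392, 336, 284 and 118 CPM (edgeR adjusted p = 1.6e-04 for the number). The other genes called were Ifitm1, Ifitm3, Adar, Samhd1, Tor3a, Sp100, Slfn8, Gbp5, Gbp8, Irgm2, Tgtp2, Phf11d, Znfx1, Rnf213, Ddx60, Lgals9 and Nlrc5. Of the 669 genes past the number test, 44 were members or on these pathway lists.

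The 9 stromal markers summed to 119000 to 168400 CPM in PDGFRα- and 89080 to 114500 CPM in PDGFRα+ libraries. Dcn and Lum passed the number test (edgeR adjusted p = 0.0383 and 0.0446), both highest in number 1 in each fraction. Number 4 was the lowest in each fraction for Dcn, and for Lum in PDGFRα- cells alone. With the block, edgeR called Col1a1, Col1a2 and Col3a1 lower and Vim higher in PDGFRα+ cells (adjusted p = 0.0155, 0.0137, 0.0107 and 0.0442). Over all tested genes the block fit called 2.27%. Markers of other cell types also differed between libraries, in other orders. The summed CPM of 9 endothelial markers was 99.6, 102, 179 and 895 in PDGFRα- and 92.8, 64.8, 186 and 201 in PDGFRα+ libraries 1 to 4, so the libraries numbered 4, lowest for the interferon-stimulated genes, were the highest for these, and Kdr, Emcn and Lyve1 passed the number test. The sum of 9 leukocyte markers was 54.9, 33.3, 133 and 133 CPM and 70.8, 36.7, 33.6 and 29.5 CPM, with 0 past the number test in edgeR. Ptprc, which encodes CD45, stood at 1.42, 0.804, 14.8 and 24.5 CPM and at 2.64, 1.64, 1.06 and 1.34 CPM. Centred by gene, the mean log2 CPM of the 9 was -0.02, -1.60, 1.42 and 1.34 in PDGFRα- libraries. In PDGFRα+ libraries it was 0.07, -0.09, -0.52 and -0.59. The sum of 8 tested macrophage and dendritic cell markers ran from 26.4 to 93.5 CPM and from 18.2 to 29.0 CPM. Centred by gene, their mean was 0.02, -0.99, 1.05 and 1.51 in PDGFRα- and -0.32, -0.575, 0.06 and -0.75 in PDGFRα+ libraries. That mean was highest in number 4 in PDGFRα- and lowest in number 4 in PDGFRα+ cells. The pDC marker Siglech, below the low-count filter, was at 0 in 4 libraries. With 98 counts in all, Siglech was highest in library 4 of each fraction (3.01 CPM in PDGFRα- and 1.11 CPM in PDGFRα+). The sum of 5 smooth muscle markers was 306, 1562, 873 and 1028 CPM and 363, 1217, 1011 and 797 CPM, lowest in number 1 in each fraction. Of the 5, Myh11, Actg2, Cnn1 and Acta2 passed the number test. The 4 pericyte markers summed to 1513, 750, 833 and 947 CPM and 1182, 671, 1014 and 767 CPM, sums made up mostly of Rgs5 (1467 and 1110.5 CPM in the libraries numbered 1). Rgs5 and Notch3 passed the number test in different orders, Rgs5 highest in number 1 and Notch3 highest in number 4 in each fraction. With the block, Cspg4 was called higher in PDGFRα+ cells (edgeR adjusted p = 0.0402). Centred by gene, the mean level of the 4 was highest in number 4 in both fractions (0.75 and 0.39 in log2 CPM, against 0.03 and 0.05 in number 1). The sum of 7 tested epithelial markers ran from 7.49 to 53.8 CPM and from 2.42 to 32.7 CPM. Ano1, a marker of interstitial cells of Cajal, passed the number test (edgeR adjusted p = 0.0128), lowest in number 1 in each fraction. The part of these cell types in the shared differences was not tested.

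**Figure D5:**
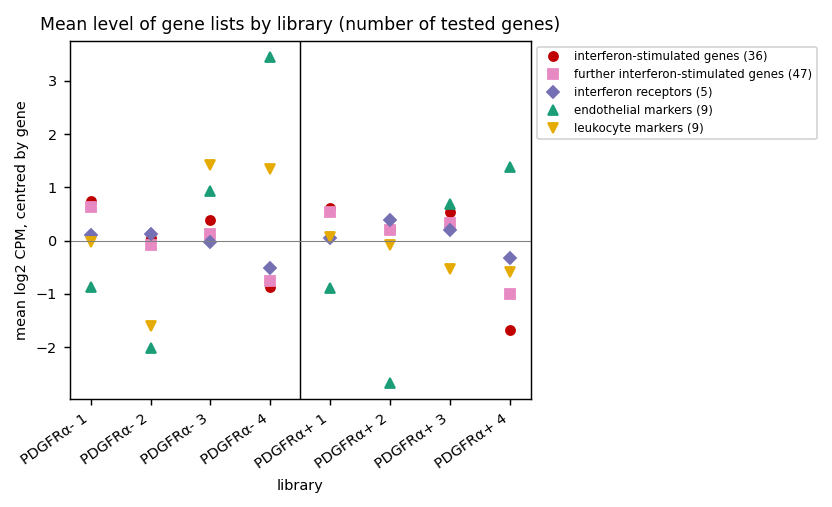
Mean log2 CPM of gene lists, centred by gene, in each library (horizontal axis), with interferon receptors in purple and leukocyte markers in yellow. The 36 interferon-stimulated genes (red) and the further list (pink) are lowest in the libraries numbered 4 of both fractions, at -0.86 and -1.68 for the 36, where the endothelial markers (green) are highest.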

How the data were processed

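RNA was sequenced from 8 libraries, 4 PDGFRα- and 4 PDGFRα+. The authors' deposited table gives raw read counts per gene, and these counts were used for every fit. Per the submitters' processing notes, cutadapt 3.4, STAR 2.7.3a, featureCounts 2.0.1 and DESeq2 were used with GRCm38 (mm10). For the annotation release and strand setting, the sources used here give nothing. The deposited scaled counts are a score, rounded to whole numbers after division by size factors, and were not tested. The deposited ratio (fold change), log2 fold change and p-value columns are the authors' own comparison, and only its adjusted p-values are quoted.

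Counts were scaled by TMM and fitted with edgeR 4.0.16 (quasi-likelihood, robust) in R 4.3.3, with Benjamini-Hochberg adjustment over all 15643 genes kept by filterByExpr, a threshold of 0.05 and group as the only term. The number test fitted group and number and tested the 3 number coefficients jointly. Alternatives were the number as a block, DESeq2 size factors, DESeq2 1.42.0, limma-voom (limma 3.58.1), other low-count filters and leaving out libraries. The scripts were tested on simulated data. Total counts of 12.9 to 35.1 in units of 1e+06 limit precision, and floors cover counting error only. Exon lengths and overlaps came from GENCODE M21 and promoters from RefSeq. Given in every library were members past a threshold, the most abundant gene of each role or pathway list, and the 3 members at each end of the fold changes and of the number effect; other members are given by level and range, and further pathway genes and markers past a threshold are named. The members and lists were chosen with earlier results of these data known. A gene of the pathway lists is not reported here.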

Additional observations from a re-analysis of the deposited data

Results flagged for a closer look

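In 4 of 74 gene and fraction groups checked, 1 library lay apart from the other 3 of its fraction, by a gap test that chance passes in about 1 in 20 groups. The RIG-I gene Ddx58 was at 34.4 CPM in PDGFRα- library 4, where the nearest other library was at 58.5 and the farthest at 60.9 CPM. Dtx3l was at 30.9 CPM in PDGFRα+ library 4, with the other libraries between 71.9 and 79.3 CPM. Gbp7 was at 70.9 CPM in PDGFRα+ library 4, with the others between 140 and 146 CPM. Ifi44 was at 18.4 CPM in PDGFRα- library 1, with the others between 4.32 and 5.93 CPM.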

How the results depend on the processing

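Without the block, 0 of the 36 interferon-stimulated genes were called between the fractions under the other size factors, filters and tools, and with any single library left out. With the replicate block, 0 members and 1 further pathway gene (Socs3, lower) were called. Leaving out libraries gave 0 to 1 members higher, 0 to 1 pathway genes higher and 0 to 1 lower. The values of 1 came from the replicate block without number 4, which called Zbp1 (log2 fold change 1.17), Slfn5 (higher) and Socs3 (lower). Without both libraries numbered 4 and without the block, an alternative chosen after seeing the data, 0 members were called. The log2 fold change of Oas1a was 0.45, changed sign to -0.12 with the replicate block, and ranged from -0.60 to 1.00 with libraries left out. It was also below 0 without PDGFRα+ library 1 (-0.0706) and with the block without number 1 (-0.52), number 2 (-0.60) or number 3 (-0.0315). The cause was not tested.

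The number test called 20 members (4.28% of all genes). It called 20 with DESeq2 size factors (4.35%), 21 and 30 with other filters (4.39% and 4.9%), 26 with DESeq2 (9.82%) and 25 with limma-voom (8.82%), so the larger counts by tool came with larger shares of all genes. Limma-voom kept 19 of the 20 and lost Mx1. With a number left out it called 4 to 27 members (4 without number 4, 10 without number 1) and 6 to 33 pathway genes (6 without number 4, 14 without number 1), where all libraries gave 24. As a check of the pairing, deviations from the fraction means were correlated between libraries over all tested genes. Libraries of equal number gave 0.23, 0.18, 0.02 and 0.25 for numbers 1 to 4. For numbers 1, 2 and 4 these libraries correlated more with each other than with any other number of the other fraction. PDGFRα- library 3 correlated more with PDGFRα+ library 4 (0.12) than with its own number, so pairing is not shown for number 3. The labels do not say what equal numbers share.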
